A study of Mus musculus with 20 samples.

Results

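The genes described here were 10 that enterocytes use to take up dietary fat and send it out again as chylomicrons: Apoa1, Apoa4, Apoc3, Apob, Mttp, Fabp1, Fabp2, Cd36, Dgat1 and Mogat2. They were listed by name for their known roles, with earlier results of these data known, and were 10 of the 35204 genes in the table of estimated counts. All 10 were among the 16306 genes abundant enough to be tested. RNA came from whole pieces of ileum of 20 female C57Bl6 mice aged 7 weeks at the start, 5 in each of 4 groups that all ate an amino-acid-defined diet for 3 weeks. CD mice ate the control diet and TDD mice the same diet without tryptophan (Trp), and both of these groups kept their specific pathogen-free (SPF) microbiota. CD+ABX and TDD+ABX mice ate the same diets and drank ampicillin, vancomycin, metronidazole, neomycin and gentamycin (ABX). The ABX water was also sweetened with sucrose, and whether SPF mice had sucrose water was not stated in the sources used here, so that antibiotics and sucrose water cannot be told apart. The comparisons ask whether the genes of fat absorption responded to the loss of dietary Trp, with and without an intact microbiota, and to the antibiotics themselves.

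Enterocytes line the villi of the small intestine and take up the fatty acids and monoacylglycerol that lipases release from dietary fat. Inside the cell these are bound by fatty acid binding proteins, joined again to triglyceride at the endoplasmic reticulum, and loaded onto apolipoprotein B. The particle gains further apolipoproteins, leaves the cell as a chylomicron and enters the lymph. Fat absorption is mainly a task of the proximal small intestine, and its genes are more weakly used towards the ileum.

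Total counts per mouse ranged from 36676963 to 58662617. Levels are given as CPM, counts relative to the library total, after scaling by TMM, which corrects for differences in library composition, or as TPM, in which the deposited transcript values account for length, where genes are compared with each other. A gene was called when the Benjamini-Hochberg adjusted p-value (q) of edgeR's quasi-likelihood test was under 0.05 over all genes tested, and log2 fold changes are given with their standard error (SE) or 95% interval from that fit. The tissue label was checked against markers of position, which were mixed. The 6 genes listed as ileum position markers summed to 1402 to 2311 CPM in the 10 SPF mice. Most of it came from Cubn and Guca2b, whose restriction to the ileum was not checked. Fabp6 and Slc10a2, which bind and take up bile acids in the terminal ileum, were at 0.238 to 3.91 CPM and 1.38 to 8.8 CPM. Lct and Gata4, which mark the proximal small intestine, were at 1470 to 3125 CPM and 75.1 to 118 CPM in all 20 mice. One mouse stood apart, CD mouse 2, in which the 10 genes together took 1.32% of all counts against 2.58 to 3.21% in the other 4 CD mice. Its 11 enterocyte markers summed to 16237 CPM against 22373 to 28005 CPM in those 4 mice, and its 5 villus tip markers to 157 against 604 to 888 CPM. Its 7 epithelial markers summed to 6876 against 6892 to 8698 CPM. Crypt markers summed to 11838 against 7742 to 11679 CPM, and smooth muscle markers to 2508 against 472 to 1506 CPM. Values without this mouse are given where leaving it out changed a call described here of a named gene, or moved a count by over 1.5 times. In whole tissue, fewer enterocytes and less RNA per enterocyte cannot be told apart.

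The genes spanned a wide range of levels. Per length, the most abundant was Apoa1, the main protein of high-density lipoprotein, with 10982 ± 1977 TPM (SD, n = 20 mice) and rank 10 among all genes. Fabp2, the intestinal fatty acid binding protein, followed with 7699 ± 3643 TPM (rank 17). Apoa4, an apolipoprotein that enterocytes add to chylomicrons, reached 4005 ± 2357 TPM (rank 30), and Fabp1, the liver-type fatty acid binding protein, 2750 ± 1121 TPM (rank 39). Apoc3, which slows the breakdown of triglyceride-rich particles, was at 1232 ± 413 TPM, and Apob, the structural protein of the chylomicron, at 837 ± 170 TPM. Dgat1 and Mogat2, the acyltransferases of triglyceride resynthesis, were at 628 ± 63.7 and 244 ± 34.2 TPM, and Mttp, which loads lipid onto Apob, at 595 ± 87.2 TPM. Of the TPM of Dgat1, 55.8% on average was assigned to its protein-coding transcript, so its place above Mttp depends on that assignment. Cd36, a fatty acid translocase of enterocytes, endothelium and fat cells, was lowest with 30.3 ± 6.23 TPM (rank 3885). Over the 20 mice, only Mttp and Mogat2, and Mogat2 and Cd36, had ranges that did not overlap among neighbours in this order.

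The order changed between groups. Apoa4 ranked 2 of the 10 in CD mice at 5123 ± 2977 TPM and in TDD mice at 6178 ± 1340 TPM, but 4 in CD+ABX mice at 1671 ± 240 TPM and 3 in TDD+ABX mice at 3048 ± 499 TPM (SD, n = 5 each). Fabp2 ranked 3 in CD mice at 4509 ± 696 TPM and in TDD mice at 4560 ± 559 TPM. It ranked 1 in CD+ABX mice at 10274 ± 2263 TPM and in TDD+ABX mice at 11452 ± 2491 TPM (SD, n = 5 each). Fabp2 and Apoa1 at the top of the order in ABX-treated mice differed by less than their SD.

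Apoa1, Apoc3 and Apoa4 are neighbours on chromosome 9 of GRCm38. Together with Apoa5 they occupy 43340 bp, with Apoa1 from 46228580 to 46230466, Apoc3 on the opposite strand from 46232933 to 46235636 and Apoa4 from 46240696 to 46243459. Apoa5, the last gene of the cluster, was at no more than 0.528 CPM in any mouse. Fabp2 (122895072 to 122899506) and Mttp (138089854 to 138144968) lie far apart on chromosome 3, Fabp1 on chromosome 6 (71199827 to 71205023) and Apob on chromosome 12 (7977648 to 8016835). Cd36 lies on chromosome 5 (17781690 to 17888801), Mogat2 on chromosome 7 (99219084 to 99238619) and Dgat1 on chromosome 15 (76502015 to 76511953).

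The bases before 4 of these genes are shown because the members of each pair, Apoa4 with Apoa1 and Fabp2 with Fabp1, are related in place or function and had different levels with ABX. The sequences are from RefSeq on GRCm38.p6, run 5′ to 3′ on the strand of the gene, and end before the first base that either RefSeq or GENCODE M21 annotates as transcribed. Capitals mark a nuclear receptor half-site, AGGTCA or AGTTCA, read on either strand.
Apoa4, chr9:46240594-46240695, plus strand: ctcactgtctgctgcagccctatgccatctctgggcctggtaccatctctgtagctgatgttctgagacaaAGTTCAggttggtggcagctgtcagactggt
Apoa1, chr9:46228380-46228579, plus strand: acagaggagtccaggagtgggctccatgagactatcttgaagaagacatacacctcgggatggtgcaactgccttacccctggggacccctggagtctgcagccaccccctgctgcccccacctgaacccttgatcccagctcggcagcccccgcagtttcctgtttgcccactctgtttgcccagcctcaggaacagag
Fabp2, chr3:122894822-122895071, plus strand: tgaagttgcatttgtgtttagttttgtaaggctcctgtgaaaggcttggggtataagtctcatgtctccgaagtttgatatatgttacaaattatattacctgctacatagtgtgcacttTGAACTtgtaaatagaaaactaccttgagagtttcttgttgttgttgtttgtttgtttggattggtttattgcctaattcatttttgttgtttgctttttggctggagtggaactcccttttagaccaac
Fabp1, chr6:71199629-71199826, plus strand: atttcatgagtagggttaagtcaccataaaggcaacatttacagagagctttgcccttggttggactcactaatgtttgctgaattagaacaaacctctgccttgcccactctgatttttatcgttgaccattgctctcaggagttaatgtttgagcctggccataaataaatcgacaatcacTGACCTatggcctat

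The half-site AGTTCA stood 179 to 174 bases before the RefSeq start of Apoa4 and, on the opposite strand, 130 to 125 bases before that of Fabp2 and 42 to 37 bases before that of Apoa1. AGGTCA was found on the opposite strand 67 to 62 and 9 to 4 bases before the start of Fabp1 and 228 to 223 bases before that of Cd36. The matches of Apoa1 and the second of Fabp1 lie in bases not shown. A TATA box, TATAAA, was found 30 to 25 bases before the start of Fabp1 and 60 to 55 bases before that of Apob, and the GATA motif AGATAA before none of the 7 members with a RefSeq promoter. Both strands of the 250 bases before the start were searched, and among all 32851 promoters of that length 11.8% held AGTTCA, 14.0% AGGTCA, 12.4% TATAAA and 9.99% AGATAA. The window before Fabp2 was poorer in G and C than that before Apoa4 (35.6% against 53.9%).

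Loss of dietary Trp did not move any of the 10 genes past the threshold. In SPF mice 0 of the 10 were called, where 14.4% of all genes tested were called (2342 of 16306, edgeR's quasi-likelihood test). DESeq2 and limma-voom also called 0 of the 10, and limma on log2(TPM + 1) called 1, Mogat2. By edgeR 1 of the 10 had an unadjusted p under 0.05, against 28.4% of all genes. The median log2 fold change of the 10 genes was 0.01, as over all genes, and the median of their absolute changes was 0.09 against 0.16. In ABX-treated mice 0 of the 10 were called as well, where 1.64% of all genes were (268 of 16306), and 2 of the 10 had an unadjusted p under 0.05, against 14.7% of all genes. DESeq2, limma-voom and limma on log2(TPM + 1) called 0 there too.

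The intervals of the log2 fold changes show how large a diet effect these mice would still allow. Apoa1 was at 8392, 4068, 7829, 10137 and 9117 CPM in CD mice 1 to 5 and at 10212, 7509, 7359, 8251 and 7475 CPM in TDD mice. Apart from CD mouse 2 these mice lay in the same range, and the log2 fold change was 0.05 with a 95% interval from -0.35 to 0.44 (q = 0.907, edgeR's quasi-likelihood test). The intervals of Mttp (-0.33 to 0.26), Dgat1 (-0.10 to 0.35) and Cd36 (-0.38 to 0.15) were also narrow, whereas those of Apoa4 (-0.38 to 1.05), Fabp1 (-0.50 to 0.68) and Apoc3 (-0.58 to 0.42) were wide.

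Mogat2, which makes diacylglycerol from monoacylglycerol, came nearest to a call in SPF mice. It was at 307, 239, 317, 328 and 322 CPM in CD mice and at 280, 263, 255, 262 and 242 CPM in TDD mice. The 4 other CD mice were above all TDD mice and CD mouse 2 was below them. With all mice the log2 fold change was -0.21 (SE 0.09, q = 0.122, edgeR's quasi-likelihood test), and without CD mouse 2 it was -0.30 (SE 0.08, q = 0.0181). It was then the 1 member called, where 19.1% of all genes were called.

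Apoa4 came nearest in ABX-treated mice. Its levels were 2144, 2358, 1910, 1815 and 2737 CPM in CD+ABX mice and 3863, 3565, 3680, 4890 and 3322 CPM in TDD+ABX mice. Every TDD+ABX mouse was above every CD+ABX mouse, a separation found for 4.78% of all genes in this comparison. The log2 fold change was 0.82 (SE 0.34, 95% interval 0.10 to 1.53, q = 0.265, edgeR's quasi-likelihood test). It passed with the ABX-treated groups fitted alone (0.81, q = 0.0217, edgeR) and with CD mouse 2 left out of the fit (0.83, q = 0.0248), which changes the shared estimate of spread and not the mice compared. In SPF mice Apoa4 ranged from 1295 to 11796 CPM on CD and from 5916 to 10687 CPM on TDD, and its change was 0.34 (SE 0.34, q = 0.566), or 0.06 without CD mouse 2 (q = 0.861, edgeR).

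Cd36 had a log2 fold change with TDD of -0.12 without ABX and of -0.29 with it (95% interval of the latter -0.56 to -0.03, q = 0.283, edgeR's quasi-likelihood test). It was at 65.3, 55.3, 44.7, 45.4 and 42.5 CPM in CD+ABX mice and at 42.4, 39.0, 39.3, 36.8 and 49.0 CPM in TDD+ABX mice. These groups overlapped through CD+ABX mice 3 to 5 and TDD+ABX mouse 5.

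The diet effects in SPF and ABX-treated mice were compared as an interaction, which 0 of the 10 genes passed, where 0.0368% of all genes did (6 of 16306, edgeR's quasi-likelihood test). None of the 10 had an unadjusted p under 0.05, against 8.87% of all genes. The largest estimate was that of Apoa4, whose change with TDD was higher by 0.48 on the log2 scale in ABX-treated mice (95% interval -0.53 to 1.49, q = 0.846, edgeR). Without CD mouse 2 this difference was 0.76 (SE 0.28, q = 0.253).

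**Figure D1:**
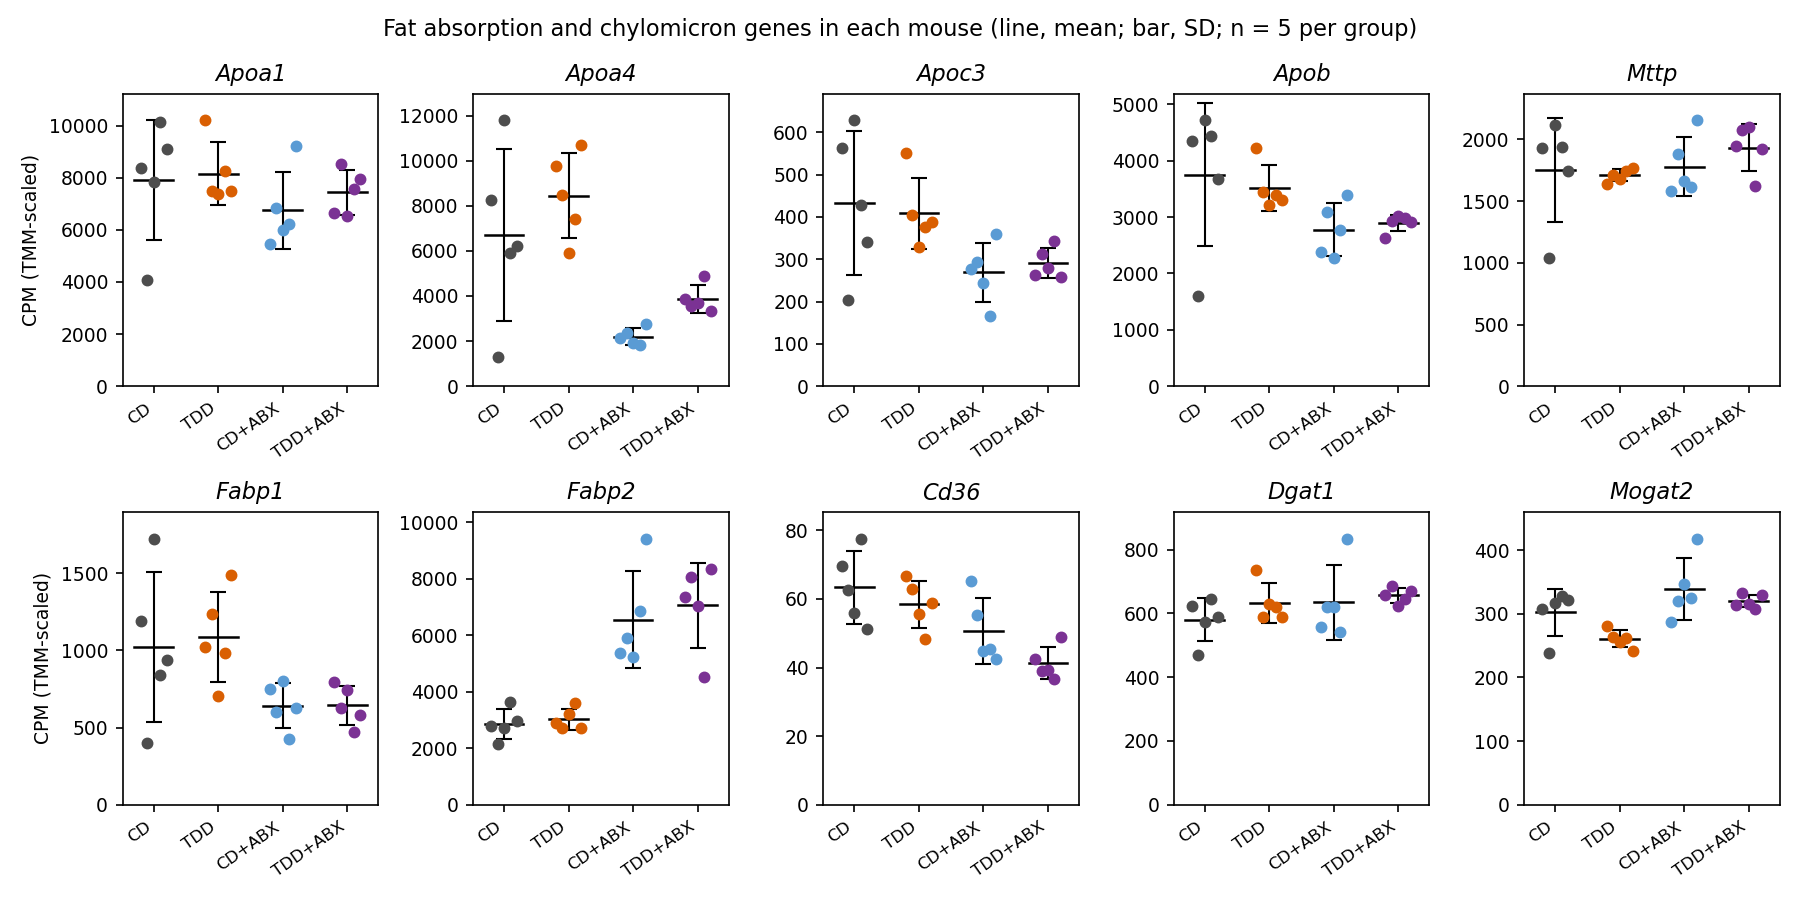
Level of each of the 10 genes in every mouse, in CPM after TMM scaling on linear axes that start at 0, with 1 point per mouse, the group mean as a line and the SD as a bar (n = 5 mice per group). Fabp2 is higher in all ABX-treated mice than in all SPF mice (4518 to 9415 against 2146 to 3636 CPM), Apoa4 is lower in ABX-treated mice except for CD mouse 2 at 1295 CPM, and CD mouse 2 is the lowest CD mouse for all genes but Cd36.

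With ABX some of the 10 genes moved in opposite directions. Fabp2 rose and Apoa4 fell on both diets, and Cd36 fell and Mogat2 rose on TDD. On CD, 2 of the 10 genes were called, where 12.6% of all genes tested were (2060 of 16306, edgeR's quasi-likelihood test). On TDD 4 of the 10 were called, where 15.4% of all genes were (2505 of 16306). The count on TDD was 7 with the TDD groups fitted alone, which added Apob, Apoc3 and Fabp1, and 2 with a replicate block. By direction, 5.26% of all genes were called as higher and 7.37% as lower on CD, against 1 member each, and 7.14% and 8.22% on TDD, against 2 members each. Both changes on CD and those of Apoa4 and Fabp2 on TDD were at least 2-fold, which held for 2.25% and 1.63% of all genes. An unadjusted p under 0.05 was found for 6 of the 10 on CD, against 26.5% of all genes, and for 5 of the 10 on TDD, against 30.5%. The median absolute log2 fold change of the 10 genes was 0.38 on CD and 0.39 on TDD, against 0.14 and 0.17 over all genes. These comparisons share the SPF groups with the diet comparisons in SPF mice, and the ABX-treated groups with those in ABX-treated mice.

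Fabp2 binds a long-chain fatty acid in the cytosol of the enterocyte. It was at 2783, 2146, 2716, 3636 and 2965 CPM in CD mice and at 5352, 5893, 5237, 6853 and 9415 CPM in CD+ABX mice. On TDD it was at 2879, 2713, 3212, 3591 and 2699 CPM without ABX and at 7332, 8046, 7021, 4518 and 8347 CPM with it. The groups did not overlap on either diet, as was the case for 9.74% of all genes on CD and 11.0% on TDD. Fabp2 was 2.30-fold higher with ABX on CD (log2 fold change 1.2, SE 0.18, q = 0.000543, edgeR's quasi-likelihood test) and 2.34-fold higher on TDD (1.22, SE 0.18, q = 0.000556). Its call held in all 20 fits that each left out 1 mouse, on both diets.

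Fabp1, which binds a broader range of lipids, had estimates of the opposite sign. It was at 1194, 400, 1725, 844 and 940 CPM in CD mice and at 752, 604, 803, 424 and 628 CPM in CD+ABX mice. On TDD it was at 1023, 1236, 706, 985 and 1490 CPM without ABX and at 794, 629, 741, 473 and 582 CPM with it. The groups overlapped on both diets. With all mice its log2 fold change was -0.67 on CD (SE 0.28, q = 0.135, edgeR's quasi-likelihood test) and -0.76 on TDD (SE 0.28, q = 0.0769, or q = 0.0315 with the TDD groups fitted alone). Without CD mouse 2, Fabp1 was called on both diets, with -0.87 on CD (q = 0.0188) and -0.73 on TDD (q = 0.0301, edgeR). On TDD this was the 1 call among the 20 fits that left out 1 mouse. It came through the shared estimate of spread, as CD mouse 2 is in neither TDD group.

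The ratio of Fabp2 to Fabp1 in TPM averaged 1.61 ± 0.72 on CD and 1.46 ± 0.538 on TDD without ABX, and 5.28 ± 2.17 on CD and 5.39 ± 1.13 on TDD with ABX (SD, n = 5 each). The highest ratio among SPF mice was 2.54, in CD mouse 2, and the lowest among ABX-treated mice was 3.15. The ratio therefore separated all 10 SPF mice from all 10 ABX-treated mice. As its parts were named after their changes had been seen, it is given as a description.

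Apoa4 was at 8259, 1295, 11796, 5901 and 6215 CPM in CD mice and at 9747, 8459, 5916, 7411 and 10687 CPM in TDD mice. With ABX the ranges were 1815 to 2737 CPM on CD and 3322 to 4890 CPM on TDD. On TDD the groups did not overlap, and on CD they overlapped only through CD mouse 2, which was below all CD+ABX mice. Apoa4 was 3.05-fold lower with ABX on CD (log2 fold change -1.61, SE 0.35, q = 0.00593, edgeR's quasi-likelihood test) and 2.19-fold lower on TDD (-1.13, SE 0.34, q = 0.0336). Without CD mouse 2 the change on CD was -1.87 (q = 3.99e-05, edgeR), and on CD the call held in all 20 fits that left out 1 mouse. On TDD it held in 13 of the 20 fits (log2 fold change -1.22 to -1.03, q from 0.00131 to 0.0752) and was lost without TDD mouse 1, 2 or 5 or TDD+ABX mouse 1, 2, 3 or 5.

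Of the 1785 stretches of 31 bases in the Apoa4 transcript, 64.5% are also part of Gm10680 or Gm47528, which GENCODE M21 places on the opposite strand across Apoa4. Neither was among the transcripts that were quantified, and no source used here says whether the libraries kept strand. Reads from these genes could therefore have been counted as Apoa4. Mttp shared 6.43% of such stretches with a quantified gene, Trmt10a. The other 8 members shared none with a quantified gene.

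The 3 other apolipoproteins among the 10 genes, Apoc3, Apoa1 and Apob, had negative estimates on both diets, none of which passed with all mice. Apoc3 was at 203 to 629 CPM in CD mice, at 167 to 360 CPM in CD+ABX mice, at 328 to 551 CPM in TDD mice and at 259 to 343 CPM in TDD+ABX mice. Its log2 fold change was -0.69 on CD (SE 0.24, q = 0.0672, edgeR's quasi-likelihood test) and -0.49 on TDD (SE 0.24, q = 0.175, or q = 0.0343 with the TDD groups fitted alone). It was called on CD without CD mouse 2 (-0.86, q = 0.00872, edgeR) and with DESeq2 (-0.68, q = 0.0328). Apoa1, its neighbour, had estimates of -0.23 on CD (95% interval -0.63 to 0.17) and -0.13 on TDD (-0.53 to 0.26), with q = 0.498 and 0.667 (edgeR). The ratio of Apoa4 to Apoa1 in TPM averaged 0.426 ± 0.237 on CD and 0.546 ± 0.128 on TDD, against 0.172 ± 0.0218 and 0.276 ± 0.0541 with ABX (SD, n = 5 each).

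Apob was at 4340, 1605, 4718, 4428 and 3672 CPM in CD mice and at 2375, 3089, 2276, 2761 and 3387 CPM in CD+ABX mice. Without CD mouse 2, every CD mouse was above every CD+ABX mouse, and the log2 fold change of -0.43 (SE 0.20, q = 0.166, edgeR's quasi-likelihood test) became -0.62 (SE 0.12, q = 0.0021). On TDD the range was 3208 to 4224 CPM without ABX and 2636 to 3013 CPM with it, again without overlap. The change there was -0.28 and did not pass in the fit of all groups (95% interval -0.69 to 0.13, q = 0.355, edgeR), whereas with the TDD groups fitted alone it did (-0.27, q = 0.0469). Of the TPM of Apob, 75.2% was assigned to a transcript of 5 exons and 2174 bases, so its level per length depends on that assignment, whereas its CPM does not. Mttp had no call, with log2 fold changes of 0.02 on CD (95% interval -0.27 to 0.32) and 0.18 on TDD (-0.12 to 0.47).

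When CD mouse 2 was left out, 5 of the 10 genes were called with ABX on CD in place of 2, where 15.6% of all genes were called (edgeR's quasi-likelihood test). These were Apoa4, Apob, Apoc3 and Fabp1, all lower, and Fabp2, which was higher. No mouse other than CD mouse 2 raised the count on CD in this way when it was left out, apart from CD+ABX mouse 1, without which Cd36 was called as well (-0.43, q = 0.0296, edgeR).

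Cd36 was at 66.6, 62.8, 55.6, 48.4 and 58.9 CPM in TDD mice and at 42.4, 39.0, 39.3, 36.8 and 49.0 CPM in TDD+ABX mice. TDD mouse 4 and TDD+ABX mouse 5, at 48.4 and 49.0 CPM, were the only mice that overlapped. Cd36 fell by 0.50 on the log2 scale with ABX on TDD (SE 0.13, q = 0.0142, edgeR's quasi-likelihood test), a call that held in all 20 fits that left out 1 mouse. On CD the change was -0.32 (SE 0.13, q = 0.103). Of 8 markers of adipocytes and endothelium, cells that also use Cd36, 2 were called as lower with ABX on TDD, where 8.22% of all genes were. All 8 had a negative log2 fold change. Their summed level was 139 to 181 CPM in TDD mice and 120 to 128 CPM in TDD+ABX mice. With ABX on CD 0 of the 8 were called, and 4 had a positive and 4 a negative log2 fold change. The sums there overlapped, with 128 to 175 CPM in CD mice and 112 to 201 CPM in CD+ABX mice. The part of these cells in the change of Cd36 was not tested. Adipoq, which fat cells secrete, was at 0.0414 to 8.53 CPM in TDD mice and at 0 to 1.36 CPM in TDD+ABX mice, and it was highest of all mice in CD+ABX mouse 1 (15.5 CPM), which also had the highest Cd36 of its group.

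The genes of triglyceride resynthesis had small changes. Mogat2 was at 242 to 280 CPM in TDD mice and at 308 to 332 CPM in TDD+ABX mice, without overlap. It rose by 0.29 on the log2 scale with ABX on TDD (SE 0.09, q = 0.0341, edgeR's quasi-likelihood test), and the call held in 13 of the 20 fits that left out 1 mouse (q from 0.00993 to 0.0751). It was lost without TDD mouse 2, 3, 4 or 5 or TDD+ABX mouse 1, 2 or 3. On CD its change was 0.17 (SE 0.09, q = 0.257). Dgat1, which adds the third fatty acid, had no call, with 0.13 on CD (95% interval -0.09 to 0.35) and 0.05 on TDD (-0.17 to 0.28).

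**Figure D2:**
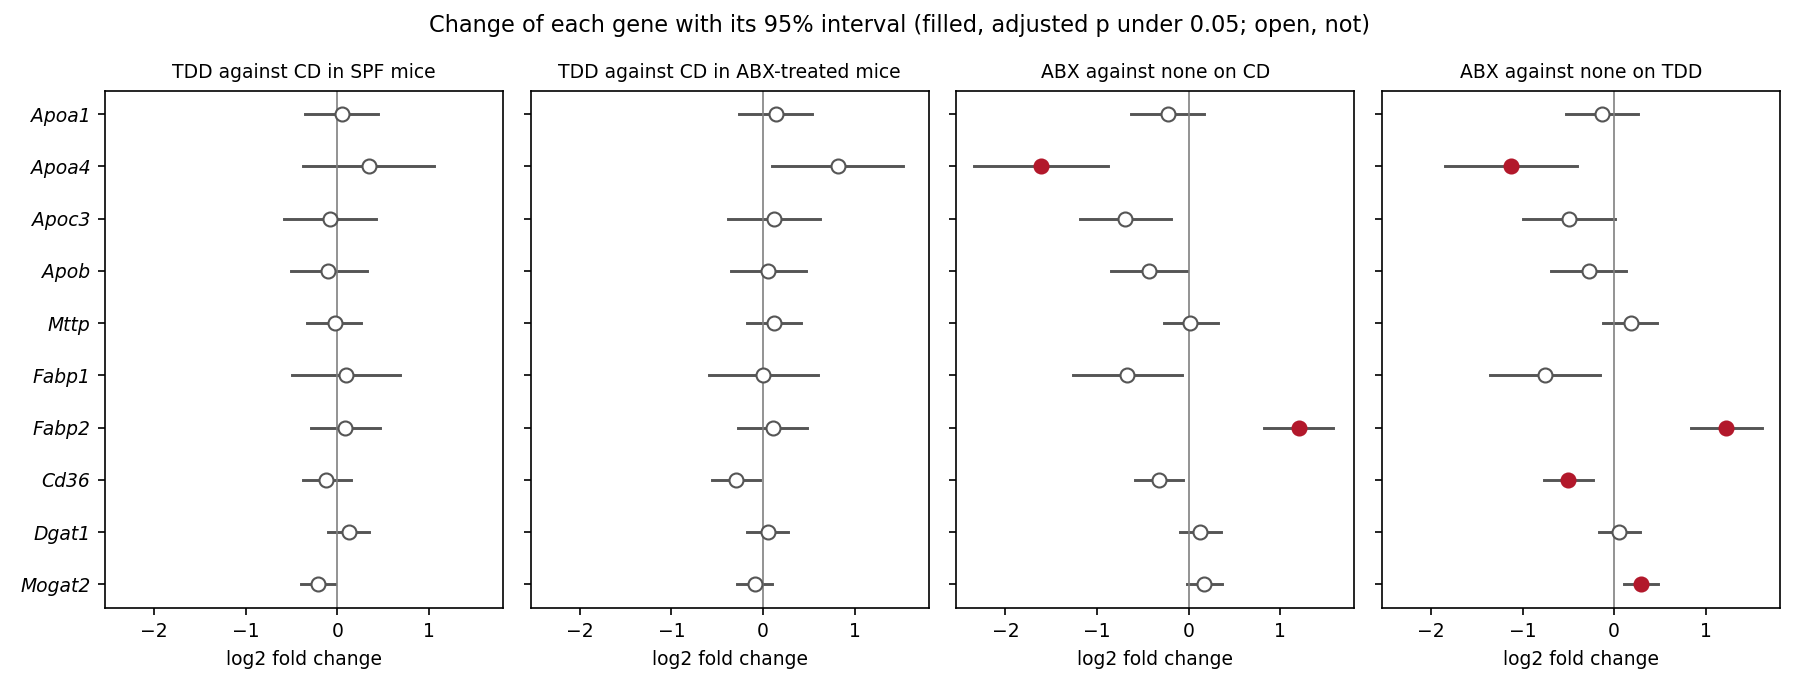
Log2 fold change of each gene (points) with its 95% interval (lines) in the 4 comparisons, from edgeR's quasi-likelihood fit of all 20 mice, with filled points for q under 0.05. The diet comparisons hold no filled point, while Apoa4 lies at -1.61 and -1.13 and Fabp2 at 1.2 and 1.22 with ABX on CD and on TDD.

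The ABX comparisons on CD and on TDD have no mouse in common. All 10 genes had the same sign in both, which held for 70.5% of all genes tested and 84.1% of the 63 further genes of the pathway. For Mttp this rested on 0.02 on CD, which became -0.11 without CD mouse 2. The interaction described above is also the test of whether the ABX effect differed between diets, and none of the 10 passed it. The call of Cd36 and Mogat2 on TDD and not on CD therefore does not show that the diets differed.

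Across mice, some of the genes varied together, and how closely depended on CD mouse 2. Without that mouse, the mean correlation of a gene with the other members ranged from -0.28 for Fabp2 to 0.37 for Apob. Over the 20 mice, log2(CPM + 1) of Apoa4 had a Pearson correlation of 0.86 with Apoc3, 0.83 with Fabp1 and 0.82 with Apob, and without CD mouse 2 of 0.84, 0.79 and 0.78 (19 mice). With Fabp2 the correlation of Apoa4 was -0.53 over 20 mice and -0.82 without CD mouse 2. These values include the differences between groups, and the mice share the scaling of their libraries. After subtraction of the group means and without CD mouse 2, Apoa4 had 0.78 with Apoc3, 0.58 with Fabp1 and 0.52 with Apob. With Apoa1 it had 0.09, against 0.71 with CD mouse 2 kept, and with Fabp2 -0.34, against 0.18. Some other pairs were also negative, such as Apoa1 with Fabp1 (-0.35). Apoa1 had 0.86 with Dgat1, 0.80 with Mogat2 and 0.66 with Apob, and Dgat1 had 0.60 with Apob and 0.54 with Apoc3. Cd36 had correlations from -0.36 to 0.15 with the other 9 genes in the same 19 mice.

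**Figure D3:**
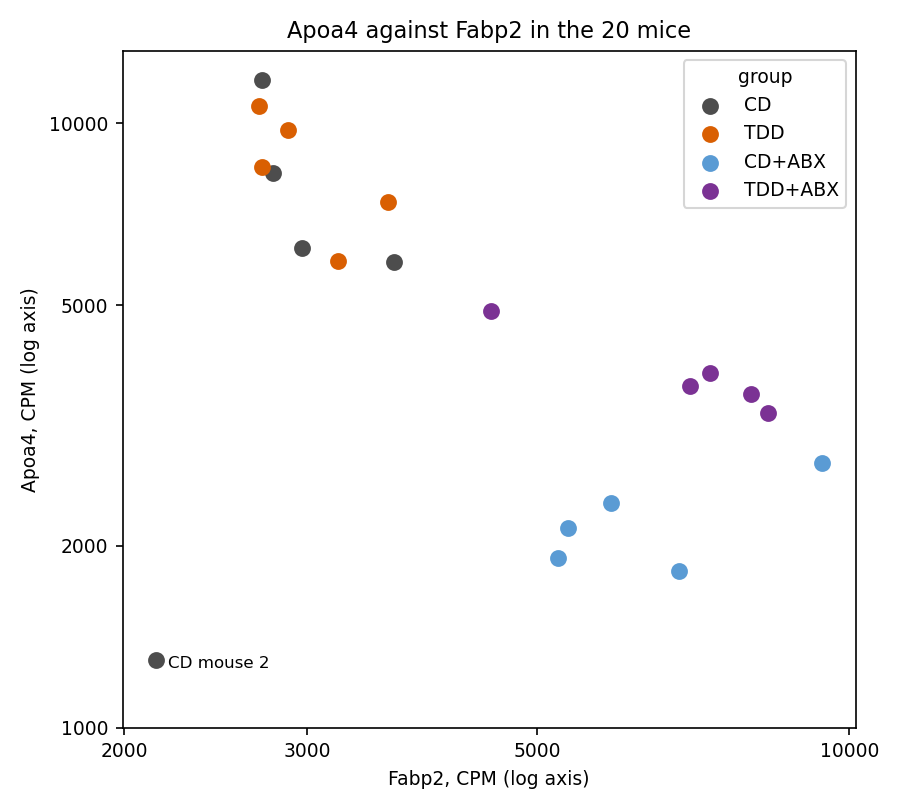
Apoa4 against Fabp2 in CPM on log axes, 1 point per mouse, coloured by group. SPF mice other than CD mouse 2 lie at the upper left and ABX-treated mice at the lower right, with TDD+ABX mice (3322 to 4890 CPM of Apoa4) above CD+ABX mice (1815 to 2737 CPM).

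The genes whose levels were most like those of the 10 members over the 20 mice, by mean Pearson correlation of log2(CPM + 1) among 9419 other genes with a mean of at least 10 CPM, were Ak3 (0.58), Tmcc1, Azi2, Bst1, Lgals8 and Treh (each 0.57), Fuca2 and Elmod2 (0.56), and Tmem30a and Stam2 (0.55). Treh, a disaccharidase of the brush border, is also one of the enterocyte markers. Without CD mouse 2, 6 of these were still among the first 10 and the highest value was 0.46. After subtraction of group means the first 5 were Bst1 (0.73), Azi2, Gata6 and Ak3 (each 0.72) and H2-Q1 (0.71), and without CD mouse 2 the highest was 0.55, of Gata6, Bst1 and Dgkd.

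The rest of the pathway was described with 5 lists of 63 further genes, all of them tested. With TDD in SPF mice 9 of the 63 were called (14.3%), 4 higher and 5 lower, against 14.4% of all genes, and in ABX-treated mice 1 was (1.59%, against 1.64%). None reached 2-fold. In SPF mice the count was 18 without CD mouse 2 (28.6%, against 19.1% of all genes), 3 higher and 15 lower. With ABX, 16 were called on CD (25.4%, against 12.6% of all genes), 5 higher and 11 lower, and 19 on TDD (30.2%, against 15.4%), 8 higher and 11 lower. The interaction called 0 of the 63 (edgeR), and 5 had an unadjusted p under 0.05.

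Among 10 genes of lipid uptake and activation, Dbi, which binds acyl-CoA, fell by 0.28 on the log2 scale with TDD in SPF mice (q = 0.044, edgeR's quasi-likelihood test). Fabp6, the ileal bile acid binding protein, had the largest change with ABX. It was at 0.413, 2.42, 0.319, 0.711 and 2.0 CPM in CD mice and at 2.65, 14.6, 5.47, 144 and 40.8 CPM in CD+ABX mice, so that the groups were separated by 2.42 against 2.65 CPM. Its log2 fold change was 5.14 on CD (SE 1.1, q = 0.00585, edgeR) and 3.92 on TDD (SE 1.06, q = 0.0198). Slc10a2, which takes bile acids up, was at 1.38 to 8.80 CPM in SPF mice and at 13.2 to 86.1 CPM in ABX-treated mice. These ileal markers were thus higher in the mice in which Fabp2 was higher and Apoa4 lower. Of the 6 genes listed as ileum position markers, 4 were called as higher with ABX on CD, against 5.26% of all genes. On TDD 2 of these markers were, against 7.14%. Their sums were 1402 to 2168 CPM in CD mice and 1625 to 2789 CPM in CD+ABX mice. In TDD mice they were 1541 to 2311 CPM and in TDD+ABX mice 1931 to 2473 CPM. Of the 5 proximal markers, 1 was called as lower on each diet (Slc40a1), against 7.37% of all genes on CD and 8.22% on TDD. Their sums were 1751 to 3261, 1570 to 2934, 1789 to 2532 and 1827 to 2446 CPM in the same order of groups. Their part in the changes of Fabp2 and Apoa4 was not tested.

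Among 14 genes of triglyceride and phospholipid resynthesis, Agpat2, which makes phosphatidic acid, fell by 0.39 with TDD in SPF mice (q = 0.00939, edgeR's quasi-likelihood test) and Gpat4, which takes the first step of the glycerol phosphate pathway, rose by 0.25 (q = 0.0126), both on the log2 scale. Among 16 genes of chylomicron assembly and export, Plin2, which coats lipid droplets, fell by 0.49 with TDD in SPF mice (q = 0.00491). P4hb, the partner of Mttp in its heterodimer, rose by 0.26 (q = 0.0488), from 1394 to 1776 CPM in CD mice to 1887 to 2064 CPM in TDD mice, without overlap. Its change was 0.19 without CD mouse 2 and was no longer called (q = 0.119, edgeR).

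Apoc2, which activates lipoprotein lipase, followed Apoa4 with ABX. It was at 293, 44.2, 434, 305 and 362 CPM in CD mice and at 56.3 to 81.9 CPM in CD+ABX mice, so that again only CD mouse 2 overlapped. On TDD it was at 119 to 243 CPM without ABX and at 64.4 to 86.0 CPM with it. Apoc2 was 4.21-fold lower with ABX on CD (log2 fold change -2.07, SE 0.37, q = 0.00177, edgeR's quasi-likelihood test) and 2.44-fold lower on TDD (-1.29, SE 0.36, q = 0.0239). With TDD in SPF mice its change was -0.62 and did not pass (q = 0.266, edgeR), and without CD mouse 2 it was -0.91 and did (q = 0.00095).

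Of 8 genes of sterol handling, 5 were called with ABX on CD, 2 higher and 3 lower, against 5.26% and 7.37% of all genes. On TDD 6 were called with ABX, 2 higher and 4 lower, against 7.14% and 8.22% (edgeR). Loss of Trp called 0 of the 8, with 2 without ABX and 1 with ABX at an unadjusted p under 0.05 (edgeR). In SPF mice TDD called 1 of them without CD mouse 2. Of the 8 genes, 2 of those called as lower with ABX are named after their values were seen. Abcg5 and Abcg8, which together return sterols to the lumen, fell on CD by 0.72 (q = 0.0067, edgeR) and 0.84 (q = 0.00362) on the log2 scale, and on TDD by 0.69 (q = 0.00853) and 0.75 (q = 0.00732). Among 15 regulators of these genes, Pparg and Ppara, nuclear receptors for fatty acids, rose with TDD in SPF mice by 0.80 (q = 0.00353, edgeR's quasi-likelihood test) and 0.60 (q = 0.0066) on the log2 scale. Pparg was at 4.68 to 8.56 CPM in CD mice and at 9.61 to 13.5 CPM in TDD mice, and Ppara at 18.7 to 33.2 and 33.7 to 47.3 CPM, without overlap in either, as for 9.58% of all genes in this comparison. In the same mice Srebf1, a regulator of lipid synthesis, fell by 0.38 (q = 0.00963) and Ppard by 0.37 (q = 0.02). Ppard was the 1 gene of the 63 in the pathway lists that was called with TDD in ABX-treated mice, where it fell by 0.48 (q = 0.0206, edgeR).

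**Figure D4:**
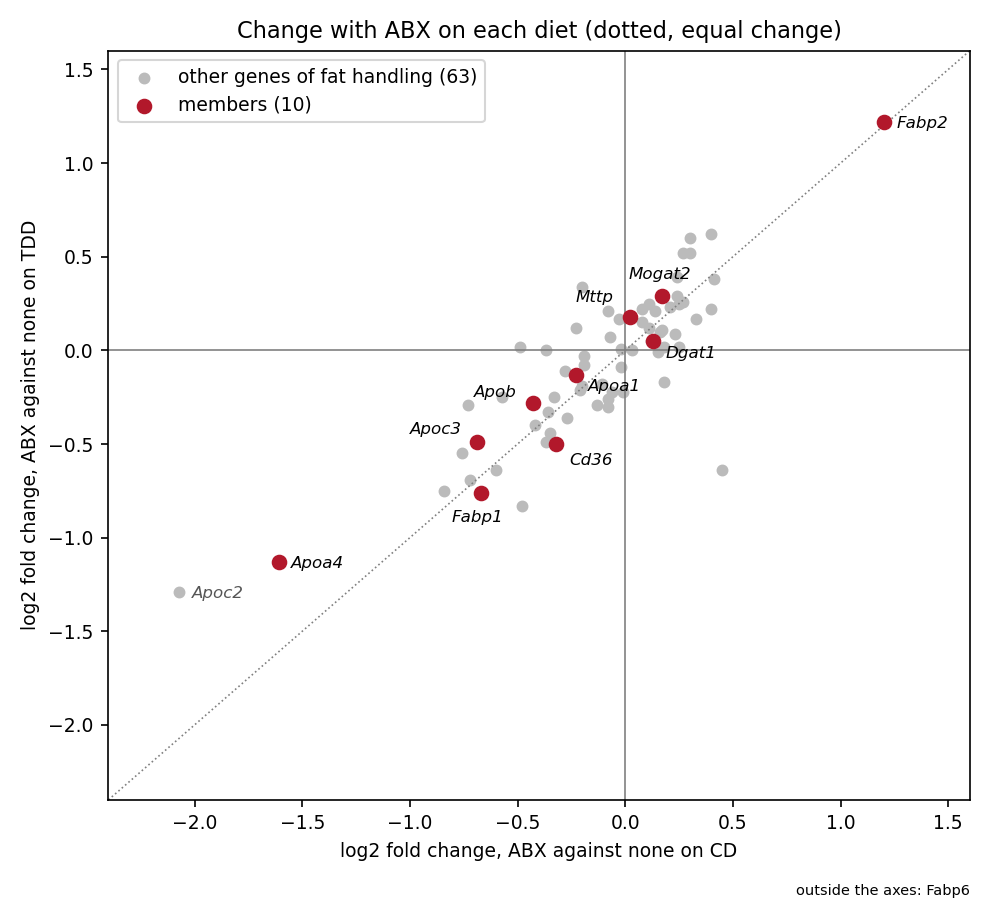
Log2 fold change with ABX on CD (horizontal) against that on TDD (vertical) for the 10 members (red, named) and 63 further genes of fat handling (grey), with the dotted line at equal change. The members lie in the lower left and upper right, with Apoa4 and Apoc2 at the lower end, Fabp2 at the upper end and Fabp6 (5.14 and 3.92) outside the axes.

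Markers of other cells moved with the diet and with ABX. Of 5 stromal markers, 3 (Col1a1, Col1a2 and Col3a1) were called as lower with TDD both in SPF and in ABX-treated mice. Of all genes, 7.71% and 1.02% were called as lower there. The stromal sums were 392 to 589 CPM in CD mice and 270 to 337 CPM in TDD mice. With ABX they were 319 to 508 CPM on CD and 274 to 333 CPM on TDD. Of 5 mid-villus markers, 3 were called as higher with TDD in SPF mice, against 6.65% of all genes, or 1 without CD mouse 2. Their sums were 3375 to 5449 CPM on CD and 6069 to 7713 CPM on TDD. Of 5 villus tip markers, 1 was called there, as lower, while 4 of the 5 had a positive log2 fold change. The part of these cells in the diet calls of Pparg, Ppara, Plin2, Agpat2 and the other listed genes was not tested. All 10 leukocyte markers had a negative log2 fold change with ABX on both diets. Against 7.37% of all genes on CD and 8.22% on TDD, 6 and 5 of these 10 were called as lower. Their sums were 432 to 634 CPM in CD mice, 257 to 361 CPM in CD+ABX mice, 372 to 876 CPM in TDD mice and 264 to 416 CPM in TDD+ABX mice. The 11 enterocyte markers summed to 21927 to 36062 CPM in CD+ABX mice and 25905 to 30747 CPM in TDD+ABX mice, against 16237 to 28005 CPM in CD mice and 24096 to 27379 CPM in TDD mice. On CD 4 of the 11 were called as higher and 1 as lower, against 5.26% and 7.37% of all genes. On TDD 2 were called as higher and 1 as lower, against 7.14% and 8.22%. Of 7 epithelial markers, 2 were called as higher with ABX on each diet, or 1 on CD without CD mouse 2. Of the 5 mid-villus markers, 2 were called as higher with ABX on CD, and 1 as higher and 1 as lower on TDD. Of the 5 villus tip markers 0 were called with ABX, with a median log2 fold change of -0.58 on CD and -0.50 on TDD. The part of these cells in the changes of Fabp2 and Apoa4 was not tested. Alb, a liver gene, was at 14.9 CPM or less in every mouse, and Pnlip, a pancreatic gene, was at 33.2 CPM in CD mouse 5. Alb was called as higher with TDD in SPF mice (log2 fold change 6.03, SE 1.93, q = 0.0436, edgeR's quasi-likelihood test). Without CD mouse 2 it was not called (5.8, q = 0.0716, edgeR). Of 6 pancreas and liver markers, 1 was called as lower with ABX on TDD, against 8.22% of all genes.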

How the data were processed

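Poly-A RNA from ileum of 20 mice was sequenced on an Illumina NovaSeq by the authors. Per the labels and the submitters' processing notes, the authors made the estimated counts with kallisto 0.44.0 and the build GRCm38/mm10, summed them to genes, and deposited whole numbers. The deposited TPM values, from the same kallisto runs, were per transcript and were summed to genes with GENCODE M21. The 4 groups, which came from the treatment given in the labels, were fitted together on the estimated counts with edgeR 4.0.16 in R 4.3.3 (TMM scaling, robust quasi-likelihood test, all genes that reached 0.5 CPM in 1 or more mice), and p-values were adjusted over all 16306 genes by Benjamini-Hochberg. Ratios, levels and correlations are descriptions without a test. limma 3.58.1, DESeq2 1.42.0, other scalings and filters, a replicate block, fits of 2 groups and fits without each mouse were the alternatives. Promoters came from RefSeq (GRCm38.p6), which had an entry for 7 of the 10 members. Apoc3, Dgat1 and Mogat2 had none. The members and all lists were chosen with earlier results of these data known. Of the 63 other listed genes, those called with a 2-fold change in any comparison of groups were named. So were the called genes among the 3 with the lowest q of their list in a diet comparison. Outside this rule, Abcg5 and Abcg8 were named after their values were seen, Apoa5 as a neighbour of Apoa4 and Gata4 as a position marker. By likeness, the first 10 were named, and the first 5 after subtraction of group means. Each mouse is a separate animal, and the strand setting of the libraries is not given in the sources used here. Total counts of 36676963 to 58662617 per mouse make counting error small beside the spread between mice for these genes.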

Additional observations from a re-analysis of the deposited data

Results flagged for a closer look

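Among the 40 groups of 5 mice formed by the 10 genes, 5 held a mouse far from the other 4 by Dixon's ratio (over 0.71), where chance gives about 1 in 20 groups. Apob was at 4224 CPM in TDD mouse 1 against 3208 to 3438 CPM in the others, and at 2636 CPM in TDD+ABX mouse 1 against 2904 to 3013 CPM. Dgat1 was at 738 CPM in TDD mouse 1 against 589 to 630 CPM, and at 835 CPM in CD+ABX mouse 5 against 543 to 621 CPM. Mogat2 was at 239 CPM in CD mouse 2 against 307 to 328 CPM.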

How the results depend on the processing

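The precision was limited by the spread between the 5 mice of a group more than by depth. Fabp2 with ABX was called on both diets, and Apoa4 with ABX on CD, in each of 20 fits without 1 mouse and in each of 10 other settings. Apoa4 with ABX on TDD was called in 5 of the 10 (q up to 0.0762, edgeR or limma), Cd36 in 8 (q up to 0.115, lost with limma on TPM) and Mogat2 in 9 (q = 0.0534 with the block, edgeR). The cause of these changes was not tested.

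The replicate numbers were not used to pair the mice in the main fit. Of 30 same-numbered pairs, 5 had a correlation over 0.1 of their deviations from group means (range -0.355 to 0.248). Differently numbered mice were not compared, so these values cannot show whether the numbers pair the mice. With a replicate block, ABX on TDD called 2 members (Cd36 and Fabp2) in place of 4, and the other counts did not move by over 1.5 times. In SPF mice TDD called 1 member, Mogat2, with limma on log2(TPM + 1) or log2(TPM + 0.1), and 0 to 1 without each mouse (1 without CD mouse 2). In ABX-treated mice TDD called 1, Apoa4, with 2 groups fitted alone, and 0 to 1 without each mouse (1 without CD mouse 2). ABX on CD called 3 with DESeq2 and 2 to 5 without each mouse (5 without CD mouse 2). ABX on TDD called 2 with limma on either TPM scale (Fabp2, Mogat2), 2 with a 2-fold limit, 7 with 2 groups fitted alone, and 2 to 5 without each mouse (2 when TDD mouse 2 or 5, or mouse 1, 2 or 3 of TDD+ABX, was left out). The interaction called 0 throughout.

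Log2 fold changes that turned sign were small and never called while on the other side. Without each mouse in turn, the diet effect in SPF mice ranged from -0.13 to 0.15 for Apoa1, -0.27 to 0.09 for Apoc3, -0.30 to 0.00 for Apob, -0.18 to 0.04 for Mttp, -0.12 to 0.37 for Fabp1 and -0.01 to 0.19 for Fabp2, and limma-voom gave 0.01 for Apoc3 and Mttp. In ABX-treated mice it ranged from -0.02 to 0.25 for Apoc3, -0.01 to 0.14 for Apob, -0.12 to 0.10 for Fabp1, -0.01 to 0.17 for Dgat1 and -0.15 to 0.00 for Mogat2. The ABX effect on CD ranged from -0.11 to 0.10 for Mttp. The interaction ranged from -0.01 to 0.28 for Apoa1, -0.36 to 0.14 for Fabp1, -0.08 to 0.19 for Fabp2 and -0.12 to 0.04 for Dgat1, which was 0.00 with limma on either TPM scale.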
